A study of Mus musculus with 8 samples.

Results

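The genes described here are 39 mouse genes of cholesterol and fatty acid metabolism, measured in sorted CD4+ T cells. They were chosen by name: every non-control array probe whose gene name is one of the 39 symbols was taken, which gave 71 of the 41174 probes and 39 of the 27670 gene names on the array. No member was found only under an older symbol. By role the members are 11 enzymes of cholesterol synthesis, 4 sterol regulators, 9 genes of fatty acid synthesis, elongation and desaturation, 4 acyl-CoA synthetases, 7 genes of beta-oxidation and 4 genes of sterol efflux and esterification.

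The study compared 4 CD4+ T cell populations from male C57BL/6 mice of 15 weeks. They were labelled naive, CD44lo, CD44hi and Treg (for regulatory), and each was hybridised to 2 one-colour arrays. CD44 is a surface receptor that rises after a T cell meets antigen. Per the series title, all populations carry Ox40-cre and ROSA-YFP, an allele pair in which the promoter of Ox40 (Tnfrsf4), a receptor of activated T cells, drives Cre and Cre switches on a yellow fluorescent reporter. Spleen and lymph nodes were pooled before sorting, and the labels give neither the sort gates nor the reporter status of each population. Sample titles begin with m1 or m2, and each of the 4 groups has 1 of each. The labels do not say whether this number marks an animal or a sort, so arrays were not treated as pairs in the main fit. A p-value below therefore reflects only how far 2 arrays of a group lay apart, and that distance can be technical.

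A cell can make cholesterol from acetyl-CoA through the mevalonate pathway or take it up in lipoproteins. When sterol in the endoplasmic reticulum is low, the SREBP factors (Srebf1 and Srebf2), otherwise held back by the Insig proteins, switch on the genes of synthesis and uptake. When sterol is high, liver X receptors (LXR) switch on the exporters Abca1 and Abcg1, while the acyltransferases Soat1 and Soat2 convert surplus cholesterol to esters for storage. Dividing T cells need sterols and fatty acids for new membranes, and fatty acid oxidation is widely studied in memory and regulatory T cells.

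The largest change among the members was read by a single Soat2 probe, printed here because it alone carries that result. In the array's annotation (build mm7) it lies at chr15:102147252-102148169 on the plus strand, and its 60 bases cover 918 bases of genome, so it crosses at least 1 intron.
Soat2 probe: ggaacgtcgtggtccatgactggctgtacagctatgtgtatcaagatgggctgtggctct

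Levels below are log2 of an array's processed signal divided by the 75th percentile of that array's probes, so that 0 is the level of the 75th percentile. A gene with several probes was read by the probe that was brightest on average. A gene entered the test if some group had that probe well above background on each of its arrays, and a difference was called where limma's adjusted p, computed over all 17996 genes tested, was under 0.05. With 2 arrays in each group, an exact permutation test of 1 gene cannot go below a two-sided p of 0.333, so only the fit across all genes is used. Of the 39 members, 38 were tested and 37 were well above background on all 8 arrays. Scd1, a stearoyl-CoA desaturase, was well above background on none and was not tested. Soat2 was well above background on 6 arrays and on neither naive array, so it entered the test through the groups in which it was high.

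The array scale varied by group and sample. The 75th percentile of processed signal was 639 on the second naive array, 991 on the first and between 1045 and 1337 on the other 6 arrays. Between 59.2% and 68.8% of probes were well above background. The 6 T cell markers were well above background on every array, with summed linear levels from 314 to 497 times the 75th percentile. Cd4 itself read from -0.41 to 1.25 on the log2 scale, near the 75th percentile, and none of the 6 was called in any of the 6 comparisons. The 8 dividing-cell genes (such as Mki67 and Top2a) were all called higher in CD44hi and in Treg than in naive cells, and 3 of 8 were called higher in CD44lo. For 7 of them the differences were 4.10 to 5.88 in CD44hi and 3.39 to 5.14 in Treg on the log2 scale. Cdk1 was not well above background in naive cells and was at least 68.0-fold and at least 36.0-fold higher. Their part in the differences below was not tested. Adipocyte genes summed to at most 0.251 times the 75th percentile in any array. Lep was well above background on none and Adipoq on all 8.

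Few members were called, and the share called was below the share of all genes called in each comparison. With 38 members these gaps are not read as a result, and a member not called is not shown to be unchanged. In CD44lo against naive 1 of 38 members (2.63%) was called, against 5.29% of all genes tested. In CD44hi against naive 9 of 38 members (23.7%) were called, 5 higher and 4 lower, against 27.8% of all genes. In Treg against naive 4 of 38 (10.5%) were called, 1 higher and 3 lower, against 21.9%. CD44hi against CD44lo gave 2 (5.26%) against 9.37% of all genes, and Treg against CD44hi gave 2 (5.26%) against 8.19%. Treg against CD44lo gave 0 calls in limma's fit, against 5.56% of all genes, and 0 members reached even an unadjusted p under 0.05. Soat2, which entered the test through groups in which it was high, is 1 of the calls in each comparison with naive. Over the 37 members above background on all arrays, the calls against naive were 8 in CD44hi (21.6%) and 3 in Treg (8.11%). The 18 calls fell on 10 genes, and 28 tested members were called in no comparison. The 3 comparisons with naive share the 2 naive arrays.

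The members' median log2 difference from naive was -0.16 in CD44lo, -0.14 in CD44hi and -0.11 in Treg, and the medians of all genes tested were -0.13, -0.15 and -0.20. The whole set was therefore centred close to the other genes, with single genes standing far from the centre.

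**Figure D1:**
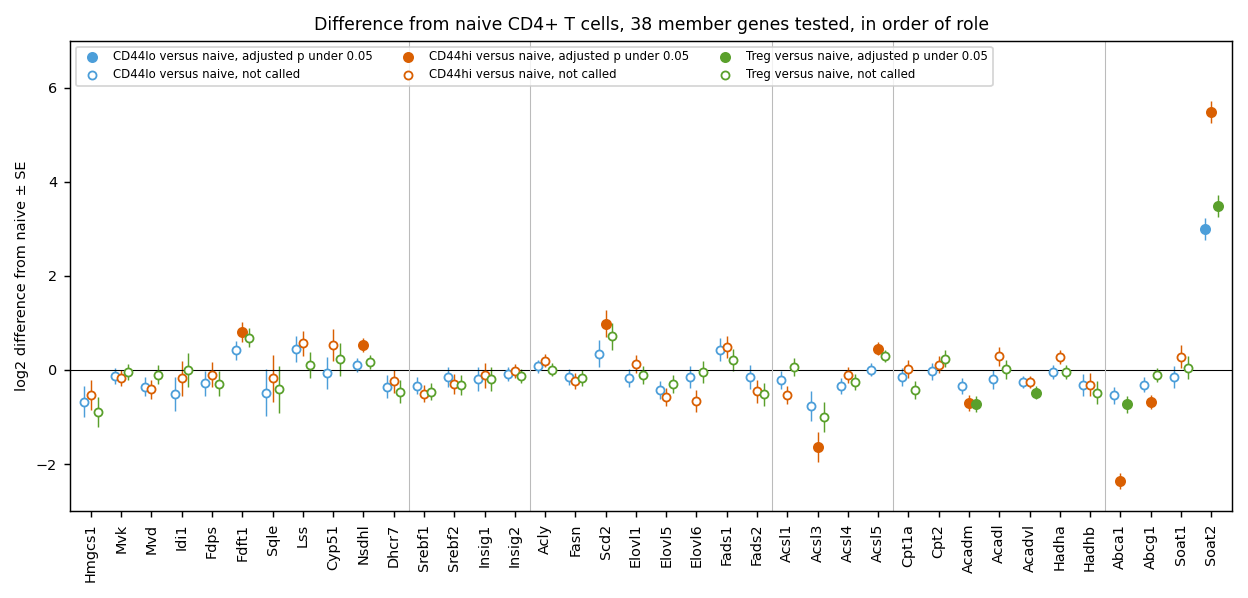
Log2 difference from naive (vertical axis, with its standard error as bars) for the 38 tested members in order of role, for CD44lo, CD44hi and Treg. Filled points have a limma adjusted p under 0.05. The Soat2 points at the right are fitted differences from naive arrays that were not above background and so are not measured folds. Abca1 falls to -2.36 in CD44hi, and the points of all 11 cholesterol synthesis genes at the left lie within 1 log2 unit of 0.

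Sterol efflux and esterification held the largest differences: 3 of its 4 members, Soat2 among them, were called in CD44hi against naive, where 27.8% of all genes were. Soat2 (sterol O-acyltransferase 2) esterifies cholesterol in intestine and liver. Its level was -7.65 and -7.47 on the naive arrays, -4.89 and -4.22 in CD44lo, -1.98 and -2.16 in CD44hi, and -4.06 and -4.09 in Treg. No array of CD44lo, CD44hi or Treg overlapped the naive arrays, and the CD44hi arrays were the highest. The naive signal was not well above background, so each fold is a lower bound, taken against the dimmest measurable signal of the naive arrays. Soat2 was at least 15.6-fold higher in CD44hi than in naive cells, at least 3.88-fold higher in Treg and at least 2.78-fold higher in CD44lo. Limma's fitted differences, which use the dim naive readings, had adjusted p = 4.08e-05, 0.000165 and 0.000695 in that order. These p-values are not of the bounds, and Soat2 entered the test only through the groups in which it was high. Between groups that were both above background, Soat2 was higher in CD44hi than in CD44lo by 2.48 ± 0.24 (log2, SE), or 5.60-fold, with adjusted p = 0.00278. It was lower in Treg than in CD44hi by a log2 difference of -2.01 ± 0.24 (SE, adjusted p = 0.00426), and the Treg difference from CD44lo, 0.48, was not called (adjusted p = 0.364). In sorted bulk RNA, more cells that hold a transcript and more transcript per cell cannot be told apart, here and for every gene below. Background correction by normexp, which adds an offset to dim signals, reduced the difference from naive to 0.30 in CD44lo (adjusted p = 0.361), to 0.49 in Treg (adjusted p = 0.0886) and to 1.89 in CD44hi (adjusted p = 0.000152). Only the last of these was still called.

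Abca1, the exporter that loads cholesterol onto lipid-poor apolipoprotein, moved the other way. Its level was 1.02 and 1.09 in naive cells, 0.61 and 0.42 in CD44lo, -1.23 and -1.38 in CD44hi, and 0.50 and 0.15 in Treg. The CD44hi arrays were far below all others, and the naive arrays were the highest. Against naive, Abca1 fell by 2.36 ± 0.17 (log2, SE) in CD44hi, a 5.13-fold difference with adjusted p = 0.000207, and by 0.73 ± 0.17 in Treg (adjusted p = 0.0285). The CD44lo difference of -0.54 was not called (adjusted p = 0.172). Abca1 was also lower in CD44hi than in CD44lo, by a log2 difference of -1.82 (adjusted p = 0.00291), and higher in Treg than in CD44hi by 1.63 (adjusted p = 0.0031). Within the 2 slides, each of which held 1 array of every group, the CD44hi difference from naive was -2.32 and -2.40. The 3 Abca1 differences that involve CD44hi were called under each of the 18 alternative settings, whereas the Treg difference from naive was lost in 6 of the 8 fits that left out 1 array, its adjusted p reaching 0.191.

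Abcg1, which passes cholesterol to high-density lipoprotein, was also lowest in CD44hi, by smaller steps. Its level was 2.93 and 3.2 in naive cells, 2.77 and 2.74 in CD44lo, 2.41 and 2.37 in CD44hi, and 3.01 and 2.90 in Treg. Only CD44hi stood below the rest on both arrays. Abcg1 fell by 0.67 ± 0.15 (log2, SE) in CD44hi against naive (adjusted p = 0.0196), and the adjusted p reached 0.115 when 1 array was left out. In Treg it differed from naive by -0.11 (adjusted p = 0.613, 95% interval -0.48 to 0.26), and its difference between Treg and CD44hi, 0.57, was not called (adjusted p = 0.0802).

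**Figure D2:**
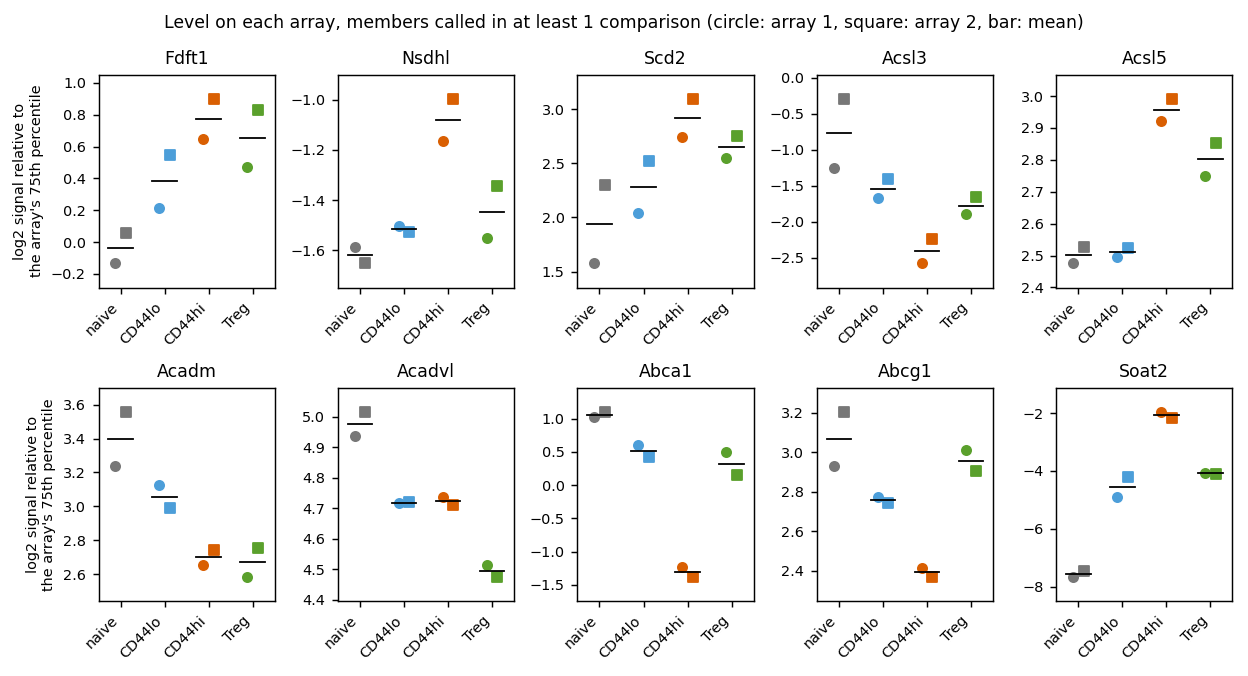
Level on each array (vertical axis, log2 of processed signal over the array's 75th percentile, a scale of its own in each panel) for the 10 members called in at least 1 comparison. Circles are array 1, squares array 2 and bars the mean of the 2. In CD44hi, Soat2 has its highest values (-1.98 and -2.16) and Abca1 its lowest (-1.23 and -1.38).

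Soat1, the acyltransferase most cells use, was flat on its brightest probe but not on every probe. The probe used, placed on chromosome 1, read 1.45 and 2.14 in naive cells, 1.61 and 1.67 in CD44lo, 1.97 and 2.19 in CD44hi, and 1.80 and 1.89 in Treg. The CD44lo and Treg arrays lay between the 2 naive arrays, and no comparison was called (CD44hi against naive 0.28, adjusted p = 0.41). A probe of the same gene name, A_51_P111612, rose instead. It read -3.63 and -2.18 in naive cells, -0.99 and -0.08 in CD44lo, -1.15 and -0.61 in CD44hi, and 0.59 and 1.08 in Treg. Tested on its own over the 27162 probes above background, an analysis added after seeing the data, it was higher than naive by 2.03 ± 0.53 (log2, SE) in CD44hi (adjusted p = 0.034) and by 3.74 ± 0.53 in Treg (adjusted p = 0.00408). The CD44lo difference, 2.37, was not called (adjusted p = 0.0637). The annotation places this probe at chr7:64592747-64592806 on the minus strand (mm7), while the other 3 Soat1 probes lie on chromosome 1, where RefSeq has the gene. The first 30 bases of both probes are shown because they are read as 1 gene and do not behave alike. Capitals mark AATAAA, the letters of the common polyadenylation signal, which 4.78% of all probes hold on the strand given.
Soat1 probe on chromosome 7: ccaaggggaaAATAAAgattgtattttgta
Soat1 probe on chromosome 1: tactaataatcccaaaatggctcctaaggc
With the mean of all 4 probes in place of the brightest, Soat1 was called in Treg against naive. The remaining 2 probes on chromosome 1 differed there by -0.13 and 0.38, and neither was called.

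**Figure D3:**
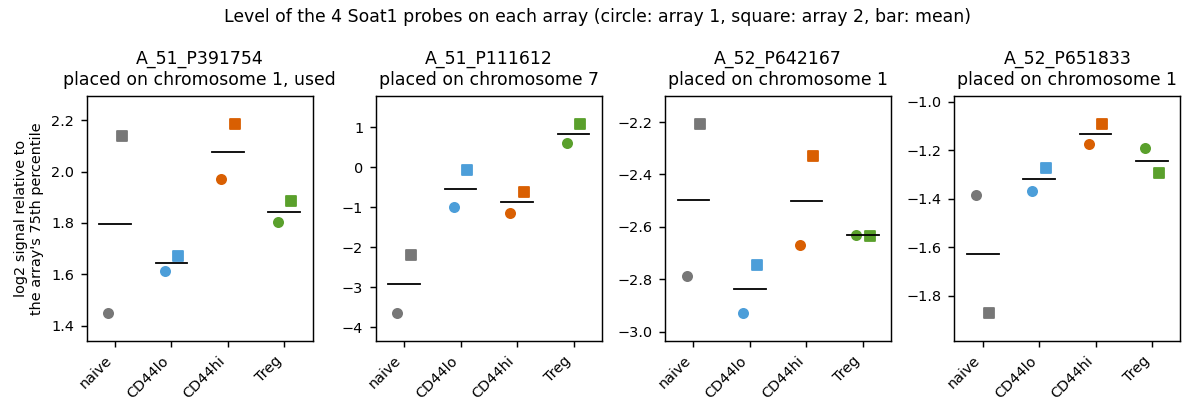
Level of each Soat1 probe on each array (vertical axis, log2 of processed signal over the array's 75th percentile, a scale of its own in each panel). Circles are array 1, squares array 2 and bars the mean. The chromosome 7 probe reads -3.63 and -2.18 in naive cells and 0.59 and 1.08 in Treg, whereas the 3 chromosome 1 probes each stay within a range of 1 log2 unit.

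Of 11 enzymes of cholesterol synthesis, 2 (18.2%) were called higher in CD44hi against naive, beside 27.8% of all genes. In CD44lo and Treg against naive 0 were called in limma's fit, beside 5.29% and 21.9% of all genes, and 0 and 2 had an unadjusted p under 0.05. Fdft1, squalene synthase, makes the first committed sterol intermediate. It read -0.13 and 0.06 in naive cells, 0.21 and 0.55 in CD44lo, 0.65 and 0.90 in CD44hi, and 0.47 and 0.83 in Treg. Every array outside the naive group was above both naive arrays. The difference from naive was 0.81 ± 0.21 (log2, SE, adjusted p = 0.0289) in CD44hi, 0.69 ± 0.21 in Treg (adjusted p = 0.057, not called) and 0.42 in CD44lo (adjusted p = 0.298). With slide as a block, the CD44hi difference had an adjusted p of 0.0502.

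Nsdhl, which removes methyl groups from the sterol ring, read -1.59 and -1.65 in naive cells, -1.5 and -1.53 in CD44lo, -1.17 and -1.0 in CD44hi, and -1.55 and -1.34 in Treg. The CD44hi arrays were the highest. Nsdhl was higher in CD44hi than in naive cells by 0.54 ± 0.15 (log2, SE, adjusted p = 0.0395), and its other 3 probes were higher there too, by 0.28 to 1.33. With slide as a block the adjusted p was 0.0521, and 7 of the 8 fits without 1 array lost the call.

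The enzymes nearest to the controlled steps were not called. Hmgcs1 makes HMG-CoA, the substrate of the rate-limiting reductase. It read 2.38 and 3.33 in naive cells, 2.02 and 2.34 in CD44lo, 2.19 and 2.44 in CD44hi, and 1.81 and 2.10 in Treg. On the probe used, all CD44lo and Treg arrays lay below both naive arrays, while the CD44hi arrays overlapped them. The Treg difference was -0.90 ± 0.32 (log2, SE, adjusted p = 0.0934, 95% interval -1.67 to -0.12). The remaining Hmgcs1 probes, also well above background on all 8 arrays, did not share this. They differed from naive by -0.21 and 0.31 in Treg and by 0.07 and 0.46 in CD44lo, none called. Sqle, squalene epoxidase and the later rate-limiting step, read 0.09 and 1.63 in naive cells, 0.08 and 0.66 in CD44lo, 0.55 and 0.81 in CD44hi, and 0.15 and 0.74 in Treg. The 2 naive arrays lay farther apart than any pair of group means. The 95% interval of the CD44hi difference from naive ran from -1.38 to 1.02, which does not show that Sqle was alike in the groups.

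The other 7 enzymes (Mvk, Mvd, Idi1, Fdps, Lss, Cyp51 and Dhcr7) differed from naive by -0.51 to 0.56 over the 3 comparisons and none was called. Idi1 and Dhcr7, for example, differed by 0.00 and -0.46 in Treg. The annotation places the Idi1 probes on chromosome 2 and those of Hmgcs1 on an unplaced contig, while RefSeq has both genes on chromosome 13.

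The 4 sterol regulators were called in no comparison by limma, where 5.29% to 27.8% of all genes were. With 4 genes, this absence of calls is not read as a result. By limma's unadjusted p, 1 of them, Srebf1, was under 0.05 in CD44hi and in Treg against naive. Srebf2, the SREBP factor of cholesterol genes, read 4.48 and 4.93 in naive cells, 4.42 and 4.69 in CD44lo, 4.32 and 4.50 in CD44hi, and 4.25 and 4.50 in Treg. Srebf1, whose products act more on fatty acid genes, read 4.48 and 4.86 in naive cells, 4.27 and 4.41 in CD44lo, 4.12 and 4.22 in CD44hi, and 4.24 and 4.19 in Treg. All Srebf1 arrays outside the naive group were below both naive arrays, with differences of -0.50 ± 0.17 (log2, SE, adjusted p = 0.0746) in CD44hi and -0.46 ± 0.17 (adjusted p = 0.105) in Treg. Insig1 and Insig2, which retain the SREBP complex, differed from naive by -0.19 to -0.03 on the probes used. A further probe of each, well above background on all 8 arrays, went the other way. It differed by 0.09 to 0.36 for Insig1 and by 0.38 to 0.44 for Insig2, with no call.

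**Figure D4:**
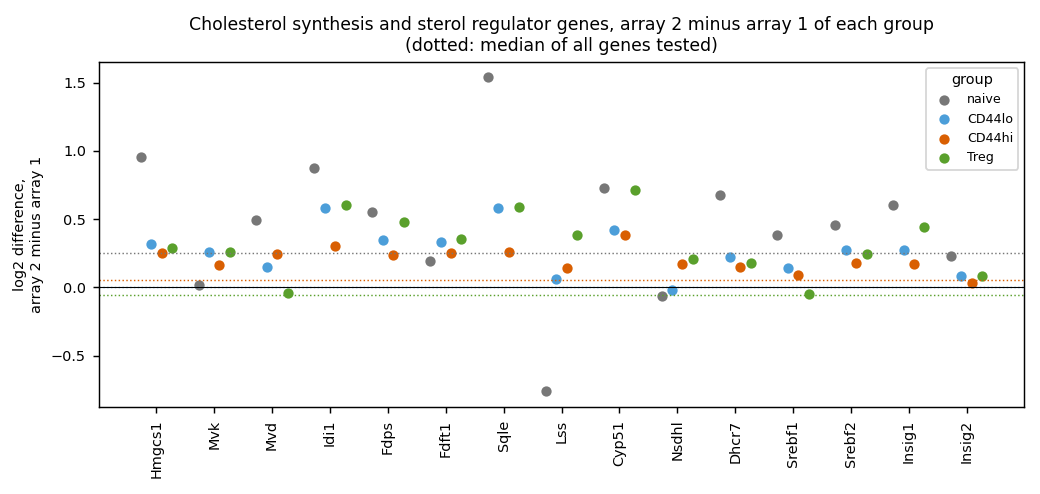
Log2 difference between array 2 and array 1 of the same group (vertical axis) for the 11 cholesterol synthesis and 4 sterol regulator genes, 1 point per group. Dotted lines are the medians of all genes tested in each group. Each gene is read by its brightest probe. Points above 0 are higher on array 2, and Sqle in naive cells reaches 1.54.

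Members also differed between the 2 arrays of a group, a pattern chosen after the values were seen and described with no test. Each gene is read here by its brightest probe. In 8 of 11 cholesterol synthesis enzymes and 3 of 4 sterol regulators the array numbered 2 was higher in all 4 groups, against 16.2% of all genes tested. The same held for 3 of 4 acyl-CoA synthetases and for 6 of the 18 other genes of cholesterol synthesis and uptake (33.3%), so the pattern was neither limited to sterol genes nor shared by most of the pathway's other genes. The pattern also depended on the probe. Further probes well above background on all 8 arrays did not keep it for Hmgcs1, Fdps, Dhcr7 and Insig2. They kept it for Mvk, Idi1, Cyp51 and Insig1, and those of Srebf2 were mixed. The median gap over the 11 enzymes was 0.56 in naive, 0.32 in CD44lo, 0.24 in CD44hi and 0.35 in Treg, where all genes tested had medians of 0.25, 0.00, 0.05 and -0.06. Sqle was higher on array 2 by 1.54, 0.58, 0.26 and 0.59 in those groups, and Cyp51, the sterol demethylase, by 0.73, 0.42, 0.38 and 0.72. Array 2 lay on slide 1 for naive and CD44lo and on slide 2 for CD44hi and Treg. The haemoglobin gene Hba-a1 moved the other way, from -1.65 to -3.02 in naive cells and from -1.58 to -4.23 in Treg, and 7 of 8 dividing-cell genes were also higher on array 2 in all 4 groups. The part of either in the sterol gap was not tested, and the labels do not say what the numbers mark.

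Of the members, 31 have a promoter in the RefSeq table (GRCm38.p6, 250 bases before to 50 after the start). The letters TCACNCCAC, a core of the sterol regulatory element with 1 open position, were searched on both strands and are held by 1.24% of all 32851 promoters. The members were counted by gene instead, where any promoter of the gene may match, and no such share over all genes was computed. By that count 2 of the 31 members hold them. These are Hmgcs1, at chr13:119690189-119690248 on the plus strand, and the acyl-CoA synthetase Acsl1, at chr8:46490865-46490924 on the plus strand. Both stretches lie upstream of the start and carry the match in capitals (on the opposite strand in Acsl1). They are shown because Hmgcs1, on the probe used, is among the genes that were higher on array 2 in every group. Acsl1 was not, with a difference between arrays of -0.03 in CD44hi. The remaining Hmgcs1 probes were lower on the second naive array, at -3.58 against -3.29 and at -4.91 against -3.74. In the other groups they were higher on array 2. The match is a description of letters only.
Hmgcs1 promoter: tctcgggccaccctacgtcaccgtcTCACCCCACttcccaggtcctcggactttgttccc
Acsl1 promoter: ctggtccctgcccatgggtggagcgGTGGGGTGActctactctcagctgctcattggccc

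Fatty acid synthesis, elongation and desaturation showed 1 call among 8 tested members in CD44hi against naive (12.5%, beside 27.8% of all genes). In CD44lo and Treg against naive 0 were called in limma's fit, beside 5.29% and 21.9% of all genes. By unadjusted p, 0 and 1 were under 0.05 there. Scd2, a stearoyl-CoA desaturase that puts the first double bond into fatty acids, read 1.58 and 2.30 in naive cells, 2.04 and 2.52 in CD44lo, 2.75 and 3.09 in CD44hi, and 2.55 and 2.75 in Treg. Both CD44hi and both Treg arrays were above the naive arrays. Scd2 was higher in CD44hi by 0.98 ± 0.29 (log2, SE, adjusted p = 0.048), and in Treg the difference of 0.71 ± 0.29 was not called (adjusted p = 0.126). The CD44hi difference was 0.45 on slide 1 and 1.52 on slide 2, and the adjusted p with slide as a block was 0.0656.

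Fasn, fatty acid synthase, read 5.11 and 5.19 in naive cells, 4.85 and 5.15 in CD44lo, 4.83 and 4.98 in CD44hi, and 4.88 and 5.07 in Treg. On the probe used, its levels lay within 1 narrow band, and the 95% interval of the CD44hi difference from naive was -0.65 to 0.16. A further Fasn probe, tested singly, was called lower in CD44hi, with a difference of -0.58 (limma's adjusted p = 0.0243). Acly, which makes cytosolic acetyl-CoA from citrate, read 1.58 and 1.54 in naive cells, 1.58 and 1.69 in CD44lo, 1.72 and 1.79 in CD44hi, and 1.5 and 1.61 in Treg. Its 95% interval for CD44hi was -0.13 to 0.53. The elongases Elovl1, Elovl5 and Elovl6 and the desaturases Fads1 and Fads2 differed from naive by -0.66 to 0.48 with no call. The lowest of these was Elovl6 in CD44hi (adjusted p = 0.0782), which read -0.93 and -0.85 there against -0.54 and 0.08 in naive cells. Scd1 stayed between -8.43 and -6.59 on all 8 arrays, not well above background.

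Of the 4 acyl-CoA synthetases, which activate fatty acids for use, 1 was called lower and 1 higher in CD44hi against naive (50%, beside 27.8% of all genes). Acsl3, linked to lipid droplets, read -1.25 and -0.30 in naive cells, -1.67 and -1.41 in CD44lo, -2.57 and -2.24 in CD44hi, and -1.89 and -1.65 in Treg. All 6 arrays outside the naive group were lower than both naive arrays, and the CD44hi arrays were the lowest. Acsl3 fell by 1.63 ± 0.32 (log2, SE) in CD44hi, a 3.10-fold difference with adjusted p = 0.0115, and this call was lost only without the first CD44hi array, where the adjusted p was 0.0557. In Treg and CD44lo the differences of -1.0 and -0.77 were not called (adjusted p = 0.0692 and 0.254).

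Acsl5, which sits at mitochondria and endoplasmic reticulum, read 2.48 and 2.53 in naive cells, 2.50 and 2.52 in CD44lo, 2.92 and 2.99 in CD44hi, and 2.75 and 2.85 in Treg. Naive and CD44lo coincided while both CD44hi arrays were the highest. Acsl5 was higher in CD44hi than in naive cells by 0.46 ± 0.13 (log2, SE, adjusted p = 0.0475), with an adjusted p of 0.0768 under slide as a block. Acsl1 read 0.23 and 0.65 in naive cells, 0.12 and 0.34 in CD44lo, -0.06 and -0.10 in CD44hi, and 0.40 and 0.62 in Treg, and its CD44hi difference of -0.52 was not called (adjusted p = 0.0892). Acsl4, which prefers arachidonate, read 2.64 and 2.98 in naive cells, 2.46 and 2.48 in CD44lo, 2.64 and 2.76 in CD44hi, and 2.53 and 2.57 in Treg, with no call.

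Beta-oxidation genes had 1 call of 7 (14.3%) in CD44hi and 2 of 7 (28.6%) in Treg against naive, all lower, beside 27.8% and 21.9% of all genes. Acadm, the medium-chain acyl-CoA dehydrogenase, read 3.24 and 3.55 in naive cells, 3.13 and 2.99 in CD44lo, 2.66 and 2.74 in CD44hi, and 2.59 and 2.75 in Treg. The CD44hi and Treg arrays overlapped each other and lay below every CD44lo and naive array. Acadm fell by 0.70 ± 0.17 (log2, SE) in CD44hi (adjusted p = 0.0248) and by 0.72 ± 0.17 in Treg (adjusted p = 0.0264), and leaving out 1 array raised the adjusted p to at most 0.117 and 0.131. Acadvl, the very-long-chain dehydrogenase, read 4.94 and 5.01 in naive cells, 4.72 and 4.72 in CD44lo, 4.74 and 4.71 in CD44hi, and 4.51 and 4.48 in Treg. The Treg arrays were the lowest. Acadvl fell by 0.48 ± 0.13 (log2, SE, adjusted p = 0.0444) in Treg, and the adjusted p with slide as a block was 0.0733.

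Cpt1a, the carnitine palmitoyltransferase that admits long-chain fatty acids to mitochondria and limits their oxidation, was not called. It read 2.87 and 3.10 in naive cells, 2.96 and 2.72 in CD44lo, 3.08 and 2.92 in CD44hi, and 2.72 and 2.40 in Treg. On the probe used, the Treg arrays lay below the naive arrays, with a difference of -0.42 ± 0.19 (log2, SE, adjusted p = 0.146, 95% interval -0.87 to 0.02). A further Cpt1a probe, well above background on all 8 arrays, did not share this. It read 0.70 and -0.30 in naive cells and 0.45 and 0.16 in Treg, a difference of 0.10. Hadha, a subunit of the mitochondrial trifunctional protein, read 0.31 and 0.53 in naive cells, 0.32 and 0.46 in CD44lo, 0.64 and 0.74 in CD44hi, and 0.39 and 0.36 in Treg. On this probe the CD44hi arrays were the highest, and the difference of 0.27 from naive was not called (adjusted p = 0.227). A further Hadha probe, well above background on all 8 arrays, went the other way in CD44hi, with a difference of -0.51, not called. Cpt2, Acadl and Hadhb differed from naive by -0.48 to 0.29 with no call.

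Other genes of the same pathways came from lists that hold no member. In CD44hi against naive 20% to 35.7% of a list's tested genes were called, beside 27.8% of all genes, and in Treg 21.7% to 38.5%, beside 21.9%. Of 18 other genes of cholesterol synthesis and uptake, all tested, 0 were called in CD44lo against naive in limma's fit (2 had an unadjusted p under 0.05), and 1 higher and 3 lower in CD44hi and again in Treg. The lysosomal cholesterol carrier Npc2 fell by 1.64 in CD44hi (adjusted p = 0.00101) and by 1.33 in Treg (adjusted p = 0.003). The sterol carrier Stard4 rose by 0.84 (adjusted p = 0.0168) and 0.67 (adjusted p = 0.0432). Acat2, a cytosolic thiolase and not an acyltransferase of sterols, fell by 0.78 in Treg (adjusted p = 0.0307).

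Of 10 other genes of sterol efflux and LXR, 1 was called higher and 1 lower in CD44hi, 1 higher and 2 lower in Treg and 0 in CD44lo by limma, where 0 had an unadjusted p under 0.05. Rxra, the partner receptor of LXR, rose by 1.30 in CD44hi (adjusted p = 0.00234) and by 0.78 in Treg (adjusted p = 0.0228). Mylip, a ubiquitin ligase and LXR target, fell by 1.23 in CD44hi (adjusted p = 0.0156) and by 1.31 in Treg (adjusted p = 0.015). Abca7 fell by 0.72 in Treg (adjusted p = 0.0221).

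Of 21 other genes of fatty acid synthesis, 14 were tested. In CD44lo, CD44hi and Treg against naive, 0, 2 and 1 were called higher and 2, 3 and 3 lower. The elongase Elovl7 read -1.25 and -0.95 in naive cells, -2.28 and -2.44 in CD44lo, -3.11 and -3.46 in CD44hi, and -5.66 and -5.58 in Treg, with no overlap between any of the 4 groups. Its fall from naive was 1.26 in CD44lo (adjusted p = 0.0109), 2.19 in CD44hi (adjusted p = 0.000351) and 4.52 in Treg (adjusted p = 3.75e-05). Acss2, which makes acetyl-CoA from acetate, also fell in all 3, by 0.66, 1.41 and 1.36 (adjusted p = 0.0448, 0.000608 and 0.000834). Mlxipl, the glucose-responsive factor ChREBP, rose by 1.27 in CD44hi (adjusted p = 0.00192).

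Of 25 other genes of fatty acid oxidation, 23 were tested, and 0, 3 and 2 were called higher and 0, 3 and 3 lower in CD44lo, CD44hi and Treg against naive. By limma's unadjusted p, 2 were under 0.05 in CD44lo. The dienoyl-CoA reductase Decr1 rose by 1.22 in CD44hi (adjusted p = 0.00504) and by 1.23 in Treg (adjusted p = 0.0057). The nuclear receptor Pparg rose by 1.06 (adjusted p = 0.0192) and 0.90 (adjusted p = 0.0395). The carnitine carrier Slc25a20 rose by 1.01 in CD44hi (adjusted p = 0.039). These 3 are named because their differences were the largest, and the genes called lower, named after their values were seen, differed by less. In CD44hi these were Cpt1b, Acaa2 and Ppargc1b, with differences of -0.91, -0.80 and -0.64, and in Treg Ppargc1a, Cpt1b and Ehhadh, with -0.82, -0.70 and -0.67.

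Of 17 genes of lipid uptake and storage, 13 were tested, and 1, 3 and 5 were called higher and 0, 1 and 0 lower in the same 3 comparisons. Dgat2, which makes triglyceride, read -2.87 and -3.06 in naive cells, -1.96 and -1.77 in CD44lo, -2.72 and -2.34 in CD44hi, and 0.90 and 0.82 in Treg. Treg stood far above the other groups, by 3.82 ± 0.18 (log2, SE) from naive (adjusted p = 5.35e-05) and by 3.39 from CD44hi (adjusted p = 0.000399), and CD44lo was higher than naive by 1.1 (adjusted p = 0.0181). The acyltransferase Agpat4 rose by 1.75 in CD44hi (adjusted p = 0.00323) and by 1.67 in Treg (adjusted p = 0.00471). Fabp4, a fatty acid binding protein not well above background in naive cells, was at least 4.71-fold higher in CD44hi and at least 2.81-fold higher in Treg. Limma's fitted differences had adjusted p = 0.0119 and 0.0363, which are not of these bounds. Fabp4 entered the test only through the groups in which it was high. Fabp4 and Pparg are also known from adipocytes and macrophages. Of the 5 adipocyte genes 2 were tested, and Adipoq was called higher in CD44lo, CD44hi and Treg by 1.90, 2.64 and 1.22. The other, Cfd, differed by -0.70, 0.59 and -0.70 and was not called. Of 7 myeloid and dendritic cell genes, summing to at most 1.2 times the 75th percentile on any array, Lyz2 was called higher in CD44hi and Treg by 2.67 and 1.90. Itgax was called lower in all 3 groups and Csf1r in Treg. Of 5 tested B cell genes 1, 3 and 2 were called higher in CD44lo, CD44hi and Treg, and the 6 B cell genes on the array summed to between 0.194 and 3.94 times the 75th percentile. Cd79b, well above background on all 8 arrays, was called in all 3 groups. The others called were Ms4a1 in CD44hi and Treg and Pax5 in CD44hi. Of 3 tested stromal genes 1, Col1a1, was called higher in each of the 3 groups and 1, Cdh5, lower in Treg. Ms4a1, Pax5 and Col1a1 were not well above background in naive cells. They entered the test only through groups in which they were high. Cdh5 was well above background on 3 arrays. Of 2 tested erythroid genes 0 were called in limma's fit and 0 had an unadjusted p under 0.05 against naive. The part of these cells in the differences was not tested.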

How the data were processed

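RNA of sorted cells was amplified, labelled with Cy3 and hybridised to Agilent 4x44k arrays, 2 for each of 4 groups. Per the file headers, spot intensities were extracted with Agilent Feature Extraction 9.5.1.1, and the processed intensity used here is background-subtracted. The authors also deposited a table of log2 values whose normalization is not given in the sources used here, although the submitters' processing notes name limma. It was used as an alternative. Each of its columns has a median between 6.86 and 6.88, and its order followed the scanner's median signal (Spearman between 0.99989 and 0.99996).

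Members and lists (pathway genes, and markers of T, B, myeloid and dendritic, adipocyte, erythroid, stromal and dividing cells) were chosen with earlier results of these data known. Control spots (1639 of 45018) were left out, spots of a probe were averaged, and the processed signal was divided by its 75th percentile on the array, and its log2 was fitted over all 8 arrays with limma 3.58.1 (R 4.3.3, lmFit and eBayes, 4 residual and 2.62 prior degrees of freedom), with Benjamini-Hochberg adjustment over 17996 genes. The procedure was tested on simulated data. Members called, and uncalled members central to their role, were named with every array's values. Of each pathway list up to 3 called genes, those of the largest difference, were named by their differences, with array values for Elovl7 and Dgat2 only. Genes were updated through RefSeq (GRCm38.p6). Probe coordinates are those of the array's own annotation. The number of arrays limits the precision. Alternatives were normexp with an offset of 50, quantile normalization, the deposited table, other filters on dim probes, the mean of a gene's probes, fits of only the 2 groups compared, replicate number or slide as a block, an intensity trend, and each array left out.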

Additional observations from a re-analysis of the deposited data

Results flagged for a closer look

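A Soat1 probe that the gene-level comparisons do not use, A_51_P111612, carried a signal above the naive level. Its log2 difference from naive was 2.37 in CD44lo (not called, limma's adjusted p = 0.0637), 2.03 in CD44hi and 3.74 in Treg, while the gene's brightest probe differed by 0.28 in CD44hi and 0.05 in Treg. The array annotation places it on chromosome 7, away from the other 3 Soat1 probes. Groups of 2 arrays are too small for a test of single outlying arrays.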

How the results depend on the processing

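No called difference changed sign under the 18 alternatives, and 83 of 319 recomputed values lost the call. In CD44hi against naive the count of 9 called members became 3 without the filter on dim probes or with only the 2 groups compared, 5 with slide as a block, and 2 to 17 without 1 array. In Treg against naive the count of 4 became 1 without that filter or with only 2 groups, 8 with the deposited table, and 1 to 12 without 1 array. In CD44lo against naive the count of 1 became 0 with normexp, 0 with the filter on all 8 arrays (which drops Soat2), and 1 to 15 without 1 array. CD44hi against CD44lo and Treg against CD44hi, 2 each, became 1 with the filter on all 8 arrays and 2 to 5 without 1 array. Treg against CD44lo stayed at 0 throughout. The highest counts against naive came without the first naive array, when 40.0% to 51.3% of all genes were called, and the lone naive array was then assumed to vary like the other groups. Without the second naive array the counts were 1, 10 and 3. The cause of these shifts was not tested.

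The replicate number was also fitted as a block. Deviations of same-numbered arrays correlated positively, at 0.06 to 0.33, over the 6 comparisons. Not all were above 0.1, and the numbers were not taken as pairs. That choice does not show that the samples were unpaired. The block gave 8 calls in Treg against naive, 10 in CD44hi against naive, and 1, 2, 2 and 0 in the others. Pathway list counts stayed within 1.5 times of their value in 169 of 270 recomputed values.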

Other observations

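Other probes of members were tested singly, an analysis added after seeing the data, with limma's adjustment over all probes. Beside the Soat1 probe, 3 probes not used for their gene were called in CD44hi against naive. An Nsdhl probe (A_51_P146701) was higher by 1.33 (adjusted p = 0.0346) where the probe used gave 0.54. A Fasn probe (A_52_P100252) was lower, with a log2 difference of -0.58 (adjusted p = 0.0243), where the probe used gave -0.24 and was not called. An Acsl1 probe (A_51_P463452) gave -0.53 (adjusted p = 0.0307), close to the -0.52 of the probe used. An Insig2 probe (A_52_P923173), well above background on 3 arrays, was lower in Treg than in CD44lo, with a log2 difference of -2.87 (adjusted p = 0.0451), where the probe used gave -0.04. The 3 probes of Lss, which closes the sterol ring, disagreed in sign in CD44hi against naive, with differences of 0.56 for the probe used and of -0.81 and 0.96 for the others, none called.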
